A study of Homo sapiens with 4 samples.

Results

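Messenger RNA was measured for the DEAD box and DEAH box RNA helicases, taken as every gene whose name is DDX or DHX followed by a number (with an optional A, B or C), leaving out DDX58 and DHX58. The rule gave 50 of the 51103 genes in the deposited tables. Polyadenylated RNA came from SCC-15, a human line labelled oral squamous cell carcinoma, made to overexpress REEP6 with a lentivirus (2 libraries) or serving as negative control, labelled NC (2 libraries). Both groups share the line and its culture medium. Not given in the sources used here are the construct's promoter, the vector of the control and whether a clone or a pool was used. Nothing in the labels ties the replicates to separate cultures. The p-values therefore cover only differences between these libraries, which may be technical.

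DEAD box and DEAH box proteins are ATPases of helicase superfamily 2, named after a run of amino acids (D-E-A-D or D-E-A-H) in the motif that helps to hydrolyse ATP. DEAD box proteins mostly pry apart short RNA duplexes or clamp RNA, whereas DEAH box proteins mostly move along a single strand and pull structures and proteins off it. Between them they drive spliceosome remodelling, mRNA export, ribosome assembly, mitochondrial RNA handling, translation and mRNA decay, and most are needed in every growing cell.

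The libraries held 12856256 to 15208629 counts. REEP6 had 11.1 and 12.6 FPKM (fragments per kilobase scaled to the library total, a level per length) in the controls and 20.0 and 20.9 FPKM with overexpression, a log2 fold change of 0.82 ± 0.108 (SE, n = 2 per group; edgeR adjusted p = 0.00119). The squamous label went against its markers: 0 of 12 squamous keratinocyte genes reached 1 FPKM in any library, with KRT5 and KRT14 at most 0.17 FPKM and KRT6A, DSG3 and SERPINB5 at 0, while KRT8 and KRT18 lay between 164 and 231 FPKM. Summed fibroblast markers, 5 of 8 reaching 1 FPKM in any library, went from 34.5 and 36.6 FPKM in the controls to 18.1 and 18.3 FPKM with REEP6. The highest value of a single fibroblast marker was 25.2 FPKM, in a control, so 1 gene made up most of that control's sum. The sums therefore do not show whether the list moved as a whole. General epithelial markers, 3 of 5 reaching 1 FPKM, summed to 343 and 361 FPKM in the controls and 406 and 412 FPKM with REEP6. KRT8 and KRT18 made up nearly all of that sum, with CDH1 at most 0.012 FPKM and EPCAM at 0.957 to 2.36 FPKM. KRT18 went from 178 and 182 FPKM to 221 and 231 FPKM, and KRT8 from 164 and 177 FPKM to 183 and 178 FPKM. The part of either marker list in the helicase results was not tested. Endothelial markers summed to at most 0.548 FPKM and leukocyte markers to at most 3.05 FPKM. In bulk RNA, fewer cells of one kind and less RNA per cell cannot be told apart.

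More helicase genes were lower than higher with REEP6, and the changes were small. A group of 10 fell, namely DHX15, DDX1, DDX46, DDX18, DDX5, DDX39B, DHX36, DDX21, DHX9 and DDX60, and DDX54 and DDX56 rose. These were 21.3% and 4.26% of the tested helicases, beside 14.2% lower and 10.9% higher among all tested genes. The share called in either direction, 25.5%, was near the 25.0% of all tested genes. DDX60, which reached 1 FPKM only in the controls, was 2.38-fold lower. The other falls lay between 1.19-fold and 1.54-fold and the rises were 1.33-fold and 1.37-fold. The genes that fell include the most abundant member by mean FPKM of the splicing, coregulator, cytoplasmic and ribosome biogenesis groups.

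Of the 50 genes, 47 reached 1 FPKM in at least 2 of the 4 libraries and were tested with edgeR's quasi-likelihood test across 13077 genes. At a Benjamini-Hochberg adjusted p of 0.05, 12 of 47 (25.5%) were called, beside 25.0% of all tested genes. The share called was thus near that of all genes. By direction, 2 helicases rose (4.26%) where 10.9% of all tested genes did, and 10 fell (21.3%) where 14.2% did. Their median log2 fold change was -0.14, against -0.01 for all tested genes. In 28 of 47 both REEP6 libraries lay below both controls in FPKM (35.3% of all tested genes did), and in 8 both lay above (28.2% of all). DDX60 and DDX43 passed the filter only through the controls, so a lower level with REEP6 was built into their entry. At a minimum of 5 FPKM, which neither gene reached, 9 helicases fell and 2 rose, beside 19.0% and 12.6% of all genes. The call depends on scaling: with FPKM sums set equal, 1 helicase rose and 16 fell (5.05% and 21.6% of all genes, 26.6% together), the median of all genes moved to -0.14 and that of the helicases to -0.27, and the split over all genes went from 1422 higher and 1853 lower to 661 and 2824.

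**Figure D1:**
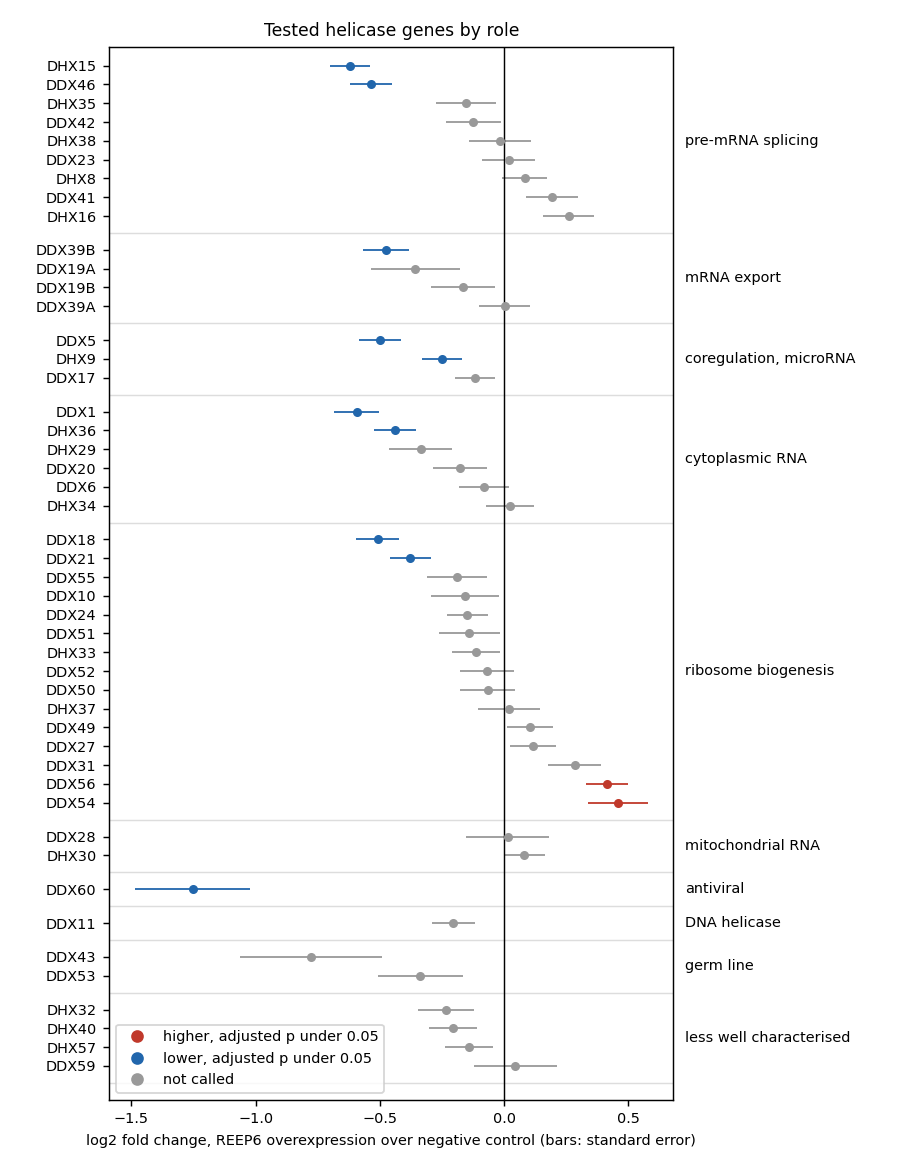
Log2 fold change (horizontal axis, REEP6 overexpression over negative control) of the 47 tested helicase genes, one point per gene with its standard error, grouped by role. Blue points fell and red points rose at an edgeR adjusted p under 0.05; the 10 blue points are spread over 6 roles and both red points stand in ribosome biogenesis.

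All members together gave 994 and 970 FPKM in the controls and 848 and 841 FPKM with REEP6. As a share of all counts that was 0.628% and 0.611% against 0.523% and 0.526%. Both REEP6 libraries lay below both controls on either scale, and the 2 libraries of each group lay close together. Abundant members weigh most in these sums, called genes such as DDX5 and DDX1 among them. The sums are therefore no separate support for the calls and do not show a shift of the whole family. The 3 members under the filter were DDX4, a germ line helicase with 0 counts in every library, DDX25, a testis helicase with 0 to 7 counts, and DDX47, a nucleolar helicase with 33 to 55 counts. DDX47 shares 36.5% of its exonic bases with APOLD1 on the same strand, and its level of 0.431 to 0.824 FPKM is therefore uncertain.

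Of the 9 splicing helicases 2 fell (22.2%), 0 rose and 7 did not pass the edgeR test. Among all tested genes 14.2% fell and 10.9% rose. DHX15 takes apart spliceosomes at the end of splicing. Control libraries held 42.2 and 40.7 FPKM of it and REEP6 libraries 26.0 and 26.9 FPKM, a log2 fold change of -0.62 ± 0.0810 (SE; edgeR adjusted p = 0.00113). DDX46, which helps U2 snRNP to bind the branch site, went from 24.8 and 22.8 FPKM to 16.0 and 16.2 FPKM (log2 fold change -0.54 ± 0.0850 SE, edgeR adjusted p = 0.00249). In both genes the REEP6 libraries lay below both controls, as they did in 35.3% of all tested genes. The other spliceosomal helicases ran from -0.15 (DHX35) to 0.26 (DHX16) on the log2 scale. DDX41 (0.19), DHX8 (0.08), DDX23 (0.02), DHX38 (-0.02) and DDX42 (-0.12), which act from spliceosome activation to mRNA release or early complex assembly, lay between them. DHX16, needed just before the first catalytic step, had 13.3 and 11.4 FPKM against 14.2 and 14.7 FPKM (edgeR adjusted p = 0.0953).

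The stretch before the transcription start is shown for 4 genes that fell, chosen because at most 10 of its 250 bases lie in an annotated exon. Sequences are from RefSeq (GRCh38.p14), 5′ to 3′ on the gene's strand and ending at the base before the start. Capitals mark GGGCGG (the GC box) and CCAAT on either strand. DHX15 lies at chr4:24584555-24584804 (minus strand), DDX46 at chr5:134758529-134758778 (plus), DHX36 at chr3:154324488-154324737 (minus) and DHX9 at chr1:182839097-182839346 (plus).
DHX15: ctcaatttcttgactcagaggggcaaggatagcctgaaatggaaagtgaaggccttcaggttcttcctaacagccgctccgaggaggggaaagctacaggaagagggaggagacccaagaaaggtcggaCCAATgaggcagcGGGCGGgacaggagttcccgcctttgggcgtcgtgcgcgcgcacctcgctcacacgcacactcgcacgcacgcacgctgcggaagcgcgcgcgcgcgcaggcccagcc
DDX46: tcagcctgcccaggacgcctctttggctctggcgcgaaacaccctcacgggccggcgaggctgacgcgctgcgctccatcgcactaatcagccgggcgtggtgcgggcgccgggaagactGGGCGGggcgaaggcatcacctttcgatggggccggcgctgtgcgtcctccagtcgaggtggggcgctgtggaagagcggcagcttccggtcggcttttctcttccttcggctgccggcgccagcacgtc
DHX36: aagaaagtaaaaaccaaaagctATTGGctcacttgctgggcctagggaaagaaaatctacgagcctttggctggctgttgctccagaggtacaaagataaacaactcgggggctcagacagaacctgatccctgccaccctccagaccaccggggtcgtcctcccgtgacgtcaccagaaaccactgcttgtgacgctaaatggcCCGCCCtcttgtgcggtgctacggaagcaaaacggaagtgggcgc
DHX9: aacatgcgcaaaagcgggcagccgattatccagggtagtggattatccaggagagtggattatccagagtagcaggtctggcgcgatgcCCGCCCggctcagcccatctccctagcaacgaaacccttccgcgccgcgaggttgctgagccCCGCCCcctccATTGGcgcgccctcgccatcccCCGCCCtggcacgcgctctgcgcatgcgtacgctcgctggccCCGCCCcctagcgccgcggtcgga

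These 4 windows are GC-rich, from 54.8% (DHX36) to 69.6% (DDX46), and each holds a GC box, with 4 in DHX9. A CCAAT box stands 121 bases before the start in DHX15, and one in reverse 228 bases before it in DHX36 and 88 before it in DHX9. No 2 matches overlap. Windows were found for 46 of the 50 members, 8893 tested genes and 27305 genes in all. The GC box was present in 54.3% of members, 68.6% of tested genes and 42.3% of all windows, and CCAAT in 45.7%, 35.4% and 33.0%. CCGGAAGT, a core bound by ETS factors, was in 15.2% of members (DDX21, DDX39B, DDX5, DDX50, DDX56, DHX30 and DHX8), 7.91% of tested genes and 3.64% of all. CACGTG, the E-box, was in 15.2% of members, 9.11% of tested genes and 6.49% of all. The ETS core and the E-box occurred both in genes that fell and in a gene that rose (DDX56 and DDX54 respectively).

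Among the 4 tested mRNA export helicases DDX39B fell (25.0%, beside 14.2% of all tested genes). DDX39B (UAP56) loads the export adaptor onto spliced mRNA and also acts early in spliceosome assembly. It went from 25.1 and 28.3 FPKM to 18.4 and 19.3 FPKM (log2 fold change -0.48 ± 0.0918 SE, edgeR adjusted p = 0.00597). It shares 30.8% of its exonic bases with other genes, among them the read-through gene ATP6V1G2-DDX39B, so part of its reads may be counted elsewhere. Its close paralog DDX39A had 57.6, 56.6, 61.2 and 50.9 FPKM in the same order and a log2 fold change of 0.00 ± 0.103 (SE), and its groups overlapped. The DDX39A to DDX39B ratio stood at 2.29 and 2.00 in control libraries and at 3.33 and 2.63 in REEP6 libraries. DDX19A and DDX19B, which release mRNA at the nuclear pore, had log2 fold changes of -0.36 and -0.17 and did not pass. These neighbours on chromosome 16 are close paralogs, so their reads may be split between them.

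Of the 3 coregulators 2 fell, DDX5 and DHX9, where 14.2% of all tested genes did. DDX5 (p68) and DDX17 (p72) are paralogs that work with transcription factors and with the microRNA-processing enzyme DROSHA. DDX5, the most abundant member by FPKM in the controls, had 88.7 and 92.4 FPKM there and 60.9 and 64.8 FPKM with REEP6 (log2 fold change -0.50 ± 0.0830 SE, edgeR adjusted p = 0.00309). DDX17 had 79.0 and 76.4 FPKM against 69.1 and 71.4 FPKM (-0.12 ± 0.0810 SE, edgeR adjusted p = 0.316). In FPKM the order of the pair thus turned: DDX5 over DDX17 gave 1.12 and 1.21 in control libraries and 0.882 and 0.907 in REEP6 libraries. In counts, which are not divided by length, DDX17 lay above DDX5 in all 4 libraries. The controls held 10147 and 11621 counts of DDX17 and 8424 and 10387 of DDX5, and the REEP6 libraries 9141 and 9496 against 5957 and 6368. DHX9, RNA helicase A, had 77.0 and 75.8 FPKM against 60.9 and 65.1 FPKM and only just passed (-0.25 ± 0.0817 SE, edgeR adjusted p = 0.0495). The DHX9 call ended when any 1 library was left out (log2 fold change -0.29 to -0.21, edgeR adjusted p from 0.113 to 0.322) and with DESeq2 (adjusted p = 0.0734).

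**Figure D2:**
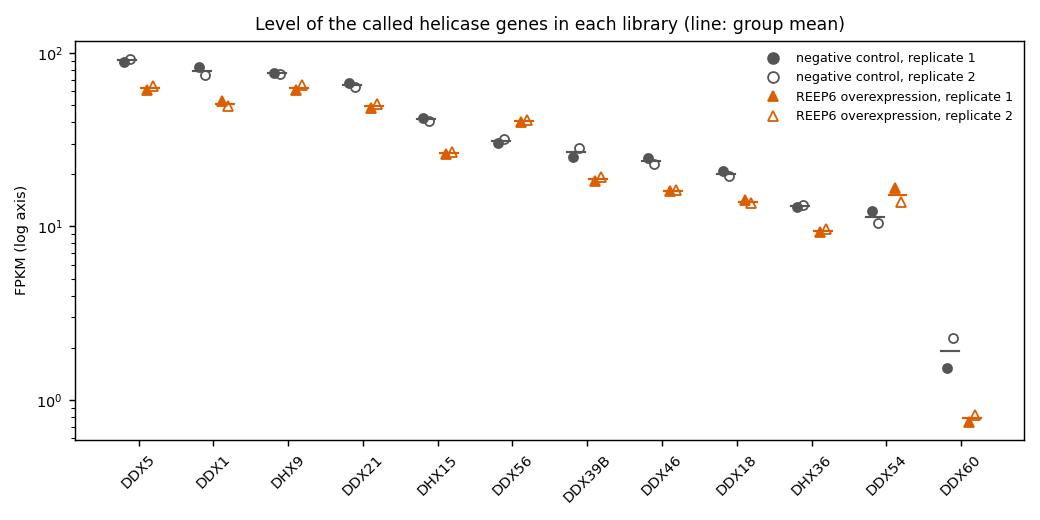
Level in FPKM (vertical log axis) of the 12 called helicase genes in each of the 4 libraries, with a line at each group mean. In all 12 the control and REEP6 libraries do not overlap. The genes were called from these same libraries, so this is no separate support. Of all tested genes 35.3% lay below and 28.2% above without overlap. DDX56 and DDX54 are the genes with the REEP6 libraries on top, and DDX60 lies far below the rest.

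In the cytoplasmic group of 6, DDX1 and DHX36 fell (33.3%, beside 14.2% of all tested genes). DDX1 belongs to the ligase complex that joins tRNA exons after the intron is cut out. It went from 82.9 and 74.4 FPKM to 53.0 and 49.2 FPKM (log2 fold change -0.59 ± 0.0915 SE, edgeR adjusted p = 0.00221). DHX36, which unwinds G-quadruplexes in mRNA, went from 12.9 and 13.3 FPKM to 9.25 and 9.67 FPKM (-0.44 ± 0.0844 SE, edgeR adjusted p = 0.00581). Neither pair of groups overlapped, and 35.3% of all tested genes also lay below the controls without overlap. Both genes were called from these same libraries, so this is no separate support. DHX29, which helps ribosomes scan structured leaders, had -0.34 and missed the threshold (edgeR adjusted p = 0.0771). DDX20 of the SMN complex had -0.18. DDX6, a repressor and decay factor of P-bodies, had -0.08 with overlapping groups, and DHX34 of nonsense-mediated decay had 0.02.

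The 16 ribosome biogenesis helicases moved both ways, with 2 of 15 tested lower, 2 higher and 11 not called. The share in each direction, 13.3%, was near that of all tested genes (14.2% lower and 10.9% higher). DDX18 went from 20.8 and 19.6 FPKM to 14.2 and 13.6 FPKM (log2 fold change -0.51 ± 0.0861 SE, edgeR adjusted p = 0.00333). DDX21, a nucleolar helicase that links transcription by RNA polymerase I to rRNA processing, went from 67.0 and 63.8 FPKM to 48.2 and 50.6 FPKM (-0.38 ± 0.0821 SE, edgeR adjusted p = 0.0101). The DDX21 call ended without REEP6 replicate 1, at a similar log2 fold change of -0.35 (edgeR adjusted p = 0.0691). DDX56, a nucleolar helicase of the large ribosomal subunit, went the other way, from 30.1 and 32.0 FPKM to 39.9 and 41.3 FPKM (0.41 ± 0.0848 SE, edgeR adjusted p = 0.00790). DDX54, also nucleolar and a corepressor of nuclear receptors, rose from 12.2 and 10.4 FPKM to 16.6 and 13.9 FPKM (0.46 ± 0.12 SE, edgeR adjusted p = 0.0219). DDX54 missed the threshold once REEP6 replicate 1 was left out (0.31, edgeR adjusted p = 0.139). It also missed in limma on log2(FPKM + 1) (limma adjusted p = 0.0910) and under equal FPKM sums (edgeR adjusted p = 0.0870).

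DDX50, the paralog of DDX21, had 23.6, 28.0, 25.5 and 22.8 FPKM with overlapping groups (log2 fold change -0.07). DDX21 over DDX50 gave 2.84 and 2.28 in control libraries and 1.89 and 2.21 in REEP6 libraries. The remaining members of the group lay between -0.19 (DDX55) and 0.28 (DDX31) on the log2 scale. DDX31 had 5.30 and 5.55 FPKM against 6.35 and 6.61 FPKM (edgeR adjusted p = 0.0837). In DHX37, DDX49, DDX27, DDX52, DHX33, DDX51, DDX24 and DDX10 the size of the log2 fold change was at most 0.16.

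DDX60, an interferon-induced helicase that promotes antiviral signalling, had the largest fall of the tested members and the lowest mean level among the called ones. DDX60 reached 1 FPKM only in the controls, so a fall was built into its entry to the test. It had 133 and 234 counts (1.53 and 2.28 FPKM) in the controls and 67 and 74 counts (0.750 and 0.824 FPKM) with REEP6. Its log2 fold change was -1.25 ± 0.233 (SE, edgeR adjusted p = 0.00506). The call ended in both limma fits, at -0.69 on log2(FPKM + 1) (limma adjusted p = 0.0630) and at -1.15 on log2(FPKM + 0.1) (limma adjusted p = 0.0624). The germ line genes DDX43 (log2 fold change -0.78, edgeR adjusted p = 0.0737) and DDX53 (-0.34, edgeR adjusted p = 0.176) were detected at low levels, at most 3.42 FPKM in any library. Like DDX60, DDX43 reached 1 FPKM only in the controls, so its lower level was built into its entry. Exons of CGAS and OOEP on the opposite strand cover part of DDX43, with 20.2% of its exonic bases shared.

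Mitochondrial and other members did not pass. DHX30, which assembles mitochondrial ribosomes, had 18.8, 19.1, 19.2 and 20.1 FPKM, and DDX28 of the mitochondrial RNA granule had 7.14, 9.12, 7.56 and 8.59 FPKM. Their log2 fold changes were 0.08 and 0.01. DDX11, an iron-sulphur DNA helicase of sister chromatid cohesion, had 33.2 and 30.0 FPKM against 26.7 and 27.1 FPKM (log2 fold change -0.20, edgeR adjusted p = 0.111). DHX40 (-0.21), DHX32 (-0.23), DHX57 (-0.14) and DDX59 (0.05) are less well characterised, and none of these 4 passed.

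The GC content of the transcripts moved with the fold change. The 10 genes that fell had a GC content of 38.4% to 50.7% (median 40.4%), and DDX56 and DDX54 had 56.2% and 60.9%. The median was 48.7% over the 47 tested helicases and 49.0% over all tested genes. Of the 25 helicases below the all-gene median, 9 fell and 0 rose, beside 22.3% lower and 4.5% higher among all genes there. Of the 22 at or above it, 1 fell and 2 rose, beside 6.01% lower and 17.3% higher. Across the 47 genes, which share the same 4 libraries, Pearson's r between GC content and log2 fold change was 0.64 and Spearman's rho 0.68. Across all 13077 genes the values were 0.27 and 0.34.

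After a correction for GC content within each library, r was 0.22 over the 47 helicases and 0.001 over all 13077 genes. The correction was fitted to all tested genes, so the value near 0 over all genes was fixed in advance. It also takes out any GC-linked difference between the groups, whatever its source. The source of the link with GC content was not tested. Then 1 helicase was higher and 7 were lower, beside 9.23% and 8.72% of all genes (17.9% together). DDX1 (log2 fold change -0.43), DDX5 (-0.41), DDX39B (-0.52), DHX15 (-0.33), DDX46 (-0.29), DDX60 (-0.96) and DDX56 (0.29) stayed past the threshold. DHX36 (-0.14, edgeR adjusted p = 0.244), DDX21 (-0.15, 0.213), DHX9 (-0.11, 0.337), DDX18 (-0.27, 0.0658) and DDX54 (0.36, 0.0504) did not. DDX11 passed after the correction (-0.32, edgeR adjusted p = 0.0225). Of the helicases lower after the correction, DDX39B, DDX1 and DDX5 had the largest falls next to DDX60.

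**Figure D3:**
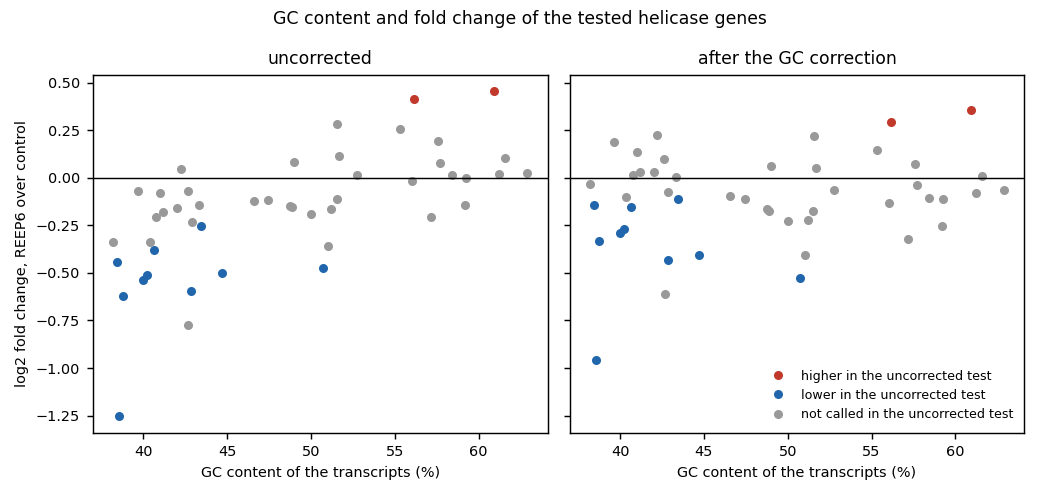
Log2 fold change (vertical axis) against the GC content of the transcripts in percent (horizontal axis) for the 47 tested helicase genes, before (left) and after (right) the GC correction, coloured by the uncorrected call. On the left the blue points reach up to 50.7% GC and the red points lie at 56.2% and 60.9%; on the right the points at low GC move up and r goes from 0.64 to 0.22.

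Partner genes were counted from 8 lists. The first list holds related helicases outside the name rule, and the others hold genes that work with the helicases. Of 94 genes, 87 were tested, 11 rose and 20 fell (12.6% and 23.0%, beside 10.9% and 14.2% of all), with a median log2 fold change of 0.02. Among the related helicases outside the name rule, of 13 tested, 8 fell and 1 rose (61.5% and 7.69%), with a median of -0.32. This list thus holds 8 of the 20 falls. The X-linked translation helicase DDX3X went from 28.3 and 26.4 FPKM to 18.2 and 17.2 FPKM (log2 fold change -0.60 ± 0.0856 SE). ASCC3, which splits stalled ribosomes, fell by 0.56 and MTREX, the helicase of the nuclear exosome, by 0.50 on the log2 scale.

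Of the 13 G-patch proteins, which switch on DEAH helicases, 1 fell, the splicing regulator RBM5, from 16.7 and 17.2 FPKM to 9.40 and 10.6 FPKM (log2 fold change -0.73 ± 0.0909 SE). Of 17 ribosome biogenesis factors 4 fell and 1 rose (23.5% and 5.88%, beside 14.2% and 10.9% of all tested genes). NOP58 and DKC1, core proteins of small nucleolar RNPs, fell by 0.59 and 0.43 and UTP20 of the small subunit processome by 0.40 on the log2 scale. Of 11 genes around DDX6 in mRNA decay 2 fell and 1 rose (18.2% and 9.09%). The 5′ exonuclease XRN1 fell by 0.61 and the decapping enzyme DCP2 by 0.36, and the decapping scaffold EDC3 rose (0.37). Of 8 mitochondrial RNA granule genes 2 fell and 1 rose (25.0% and 12.5%). LRPPRC, which stabilises mitochondrial mRNA, fell by 0.49 and FASTKD2 by 0.35, while SLIRP, which binds LRPPRC, rose (0.47).

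Of 11 THO/TREX and export genes 3 rose and 3 fell (27.3% each, beside 10.9% and 14.2% of all tested genes). Among them the adaptor ALYREF rose from 45.1 and 38.3 FPKM to 61.9 and 53.4 FPKM (log2 fold change 0.50 ± 0.114 SE). NUP214 rose (0.32) and THOC1 fell by 0.34. In the list of tRNA ligase and SMN complex genes 3 of 12 rose (25.0%) and 0 fell at the edgeR threshold. Those that rose were GEMIN5 (0.56), GEMIN6 (0.49) and GEMIN4 (0.41), all of the SMN complex with DDX20. DROSHA rose (0.36) and the other Microprocessor gene tested was not called. The counts of partner genes changed when single libraries were left out. Such fits have 1 residual degree of freedom, and each called fewer of all tested genes than the full fit.

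The GC correction ended the call of 11 of the 20 partner genes named above. Among those that had fallen, the log2 fold changes became -0.31 for XRN1, -0.30 for ASCC3, -0.26 for MTREX, -0.21 for UTP20, -0.08 for DCP2, -0.07 for FASTKD2 and -0.04 for THOC1 (edgeR adjusted p from 0.0567 to 0.798). Among those that had risen, they became 0.50 for GEMIN6, 0.29 for GEMIN4, 0.29 for EDC3 and 0.27 for NUP214 (edgeR adjusted p from 0.0525 to 0.0774). DDX3X (-0.41), RBM5 (-0.70), NOP58 (-0.40), DKC1 (-0.44), LRPPRC (-0.29), ALYREF (0.38), DROSHA (0.42), SLIRP (0.48) and GEMIN5 (0.57) stayed past the threshold. Leaving out 1 library ended the edgeR call of 10 of the 20: NUP214, THOC1 and GEMIN6 without control replicate 2 or either REEP6 library, FASTKD2 without control replicate 1 or either REEP6 library, and DROSHA without control replicate 2 or REEP6 replicate 1. The same held for EDC3 without control replicate 1 or REEP6 replicate 2, for ALYREF, GEMIN4 and DCP2 without REEP6 replicate 1, and for DKC1 without REEP6 replicate 2. In these fits the log2 fold changes kept their sign and lay between -0.37 and 0.56.

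**Figure D4:**
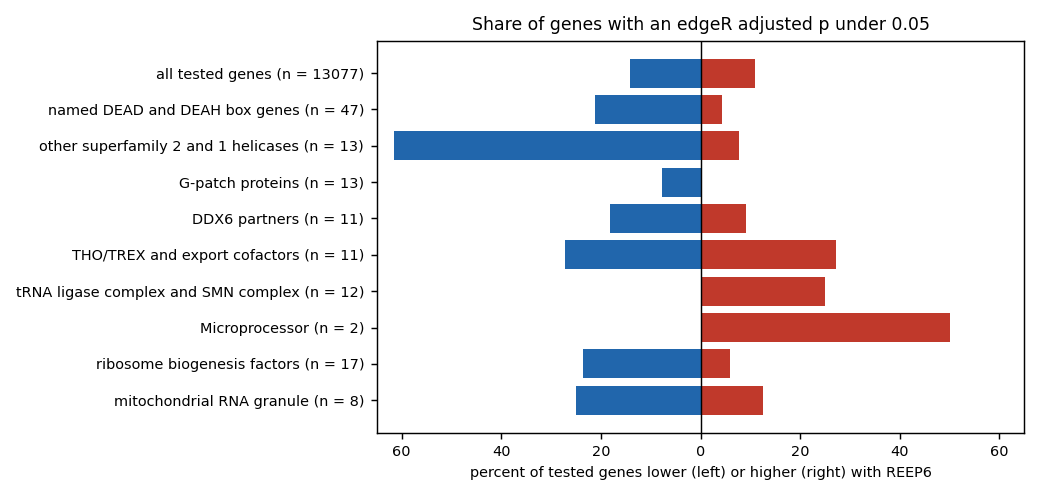
Percent of tested genes that fell (blue, left) or rose (red, right) with REEP6 at an edgeR adjusted p under 0.05, for all tested genes, the 47 helicases and each partner list, with the number tested. The related helicases extend farthest to the left, with 8 of 13 lower, and the list of tRNA ligase and SMN complex genes has no bar on the left.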

How the data were processed

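For each library the authors deposited a table of Ensembl genes, each with its raw count and its FPKM. The submitters' processing notes name HISAT2, HTSeq 0.13.5 and GRCh38, without roles. Not given in the sources used here are which annotation was counted, whether strand was used and how ambiguous reads were handled. Overlapping, antisense and paralogous genes therefore cannot be separated. Deposited FPKM equals count per length and library total for 100% of 29161 genes with a count (relative tolerance 0.0001).

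Genes with at least 1 FPKM in at least 2 libraries (13077) were scaled by TMM and tested with edgeR 4.0.16 (R 4.3.3, quasi-likelihood with abundance trend, group term, 2 residual degrees of freedom, two-sided, Benjamini-Hochberg over all genes, threshold 0.05). SE is the log2 fold change over the square root of F. The biological coefficient of variation was 9.35%. An exact permutation of 2 against 2 cannot go below p = 0.333.

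The members, roles and lists were chosen with earlier results of these data known. Named genes were REEP6, each called member, the most abundant of each role, 4 paralog pairs and up to 3 called genes per partner list by smallest p; other members are given to account for all. Coordinates and GC content are from GENCODE release 29, and 2 older partner symbols were matched through RefSeq synonyms. Alternatives were median-of-ratios or library-total scaling, equal FPKM sums, no filter, a minimum of 5 FPKM, DESeq2 1.42.0, limma 3.58.1 on log2(FPKM + 1) or log2(FPKM + 0.1), leaving out each library, a replicate block, and a GC correction (loess, span 0.3) alone or with the block.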

Additional observations from a re-analysis of the deposited data

How the results depend on the processing

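Of the 12 called helicases, 6 stayed called in each alternative in which they were tested (DDX1, DDX5, DDX39B, DDX46, DDX56 and DHX15), and no called helicase changed sign. DHX9 was lost in 11 of 15 alternatives, DDX54 in 5, DDX21, DHX36 and DDX60 in 2 each and DDX18 in 1. The count of helicases that rose (2) was 1 with equal FPKM sums, either limma fit or the GC correction. The count that fell (10) was 16 with equal FPKM sums, 8 in either limma fit and 7 with the GC correction. Of all genes 5.05% rose and 21.6% fell with equal FPKM sums, and 9.23% and 8.72% with the GC correction. In limma on log2(FPKM + 1) 4.85% of all genes rose and 9.73% fell, and on log2(FPKM + 0.1) 4.57% and 9.43%. Without single libraries the counts of helicases and partner genes also changed. Those fits have 1 residual degree of freedom, and each called fewer of all genes. Partner genes that rose (11) were 2 with equal FPKM sums, 2 with limma on log2(FPKM + 1), 1 with log2(FPKM + 0.1), 7 with the GC correction and 3 to 12 without single libraries. Partner genes that fell (20) were 10 in either limma fit, 8 with the GC correction and 12 to 17 without single libraries. All called genes (3275) were 1906 and 1830 in the limma fits. The median log2 fold change of the helicases (-0.14) was -0.13 with median-of-ratios scaling or DESeq2, -0.17 with library totals or limma on log2(FPKM + 0.1), -0.27 with equal FPKM sums, -0.12 without a filter, -0.16 at 5 FPKM, -0.10 with the GC correction and -0.15 to -0.12 without single libraries. Near-zero values changed sign, none of them called: DDX39A was -0.026 with library totals, -0.13 with equal FPKM sums, -0.021 at 5 FPKM, -0.032 in both limma fits, -0.11 with the GC correction and -0.15 to 0.14 without single libraries. DHX30 was -0.052 with equal FPKM sums and -0.040 with the GC correction, DHX40 was 0.017 and DDX50 0.10 with the GC correction, and DDX50 was -0.19 to 0.089 without single libraries.

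The titles' replicate numbers do not state a shared culture or day. The replicate 1 minus replicate 2 differences of the groups correlated at 0.38 over the tested genes, a hint from the data only. With a replicate block 6022 genes were called, 5 helicases rose and 17 fell (beside 22.6% and 23.4% of all genes), 19 partner genes rose, and DDX39A was -0.0048. With the block and the GC correction together 5237 genes were called, 22 partner genes rose and 17 fell, 2 helicases rose and 11 fell (beside 22.3% and 17.7% of all genes), the helicase median was -0.10, DDX39A was -0.12, DHX30 -0.040, DHX40 0.018 and DDX50 0.10. The precision of every value is limited by 2 libraries a group.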
